A study of Mus musculus with 9 samples.

Results

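Cartilage lineage genes were followed in RNA-Seq of whole osteosarcoma (OS) tumors from genetically engineered mouse models (GEMMs), of which 4 were p53 driven and 5 Myc knockin. The 10 genes were taken by their symbols from the 55367 genes of the deposited count table, and they are Sox9, Col2a1, Acan, Comp, Matn1, Matn3, Col9a1, Col10a1, Ihh and Hapln1. The p53-driven mice, labelled Col2.3-Cre/TrpP53fl/+, carry a floxed Trp53 allele and a Cre recombinase driven by Col2.3, a promoter active in osteoblasts. The Myc-knockin mice, labelled Cre-Lox-Stop-Lox;(LSL)-c-MycT58A together with p53fl/+, carry the same Cre and floxed allele and in addition a stabilized c-Myc that Cre switches on. The tumors arose spontaneously, and no normal bone or cartilage was part of the comparison, so every value is a level in a tumor relative to the other tumors. The question was whether the genotypes differ in genes of chondroblastic differentiation, read tumor by tumor.

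Cartilage cells arise under the transcription factor SOX9, which with its partners SOX5 and SOX6 switches on the genes of the cartilage matrix. That matrix is a net of type II collagen fibrils with type IX collagen on their surface, filled with aggrecan that link protein fastens to hyaluronan, and with COMP and the matrilins as bridging glycoproteins. In the growth plate, chondrocytes that stop dividing secrete Indian hedgehog and then make type X collagen before bone replaces the cartilage. OS is a tumor of bone-forming cells, and in its chondroblastic form the tumor also lays down cartilage matrix.

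Expression is given as CPM, edgeR's counts scaled to library sizes normalized by TMM. Total counts ranged from 2716322 to 17073285, and 3 counts, taken as the floor, corresponded to between 0.114 and 2.39 CPM. In the libraries F187, M351, M408 and M9, between 23.2% and 81.0% of all counts fell on 12 satellite-repeat genes, against at most 0.0242% in the other 5 libraries. The reads that genomic background would place on a gene, estimated from chemosensory receptor genes, were most numerous in F187, M351 and M9, and they are given where they make up a large part of a low value. In M624 and M664 the small nuclear RNA gene Rn7sk had 3.47 and 6.35 CPM, against at least 6545 CPM in the other 7 libraries. Myc itself ranged from 43.5 to 67.1 CPM in the p53-driven tumors and from 144 to 1045 CPM in the Myc-knockin tumors, without overlap.

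None of the cartilage genes was called between the genotypes by edgeR, and the tumor with the highest level was not the same for all of them. Of the 9 members it tested, 0 were called by its quasi-likelihood test (adjusted p under 0.05 with more than a 1.5-fold change), where 5.27% of all 15365 genes tested were called, 2.26% as higher and 3.00% as lower in the Myc-knockin tumors. The tenth member, Matn1, did not pass the filter on low counts. An unadjusted edgeR p under 0.05 was reached by 4 members, Col2a1, Col9a1, Col10a1 and Ihh, and by 26.8% of all genes tested. The groups did not separate for any member, with 0 of 10 free of overlap against 13.0% of the genes tested. limma-voom called 0 of 9 members, against 10.8% of genes. DESeq2 called 2 of the 8 members to which it gave an adjusted p, Col9a1 and Ihh, both higher in the Myc-knockin tumors, against 11.9% of genes. Without M624 and M664 the edgeR test called 0 of 7 members tested, against 4.61% of genes. The labels tie no tumor name to a numbered sample, and whether any tumors came from related mice is not given. These p values set the difference between the genotypes against the spread between tumors, which the tests take as independent.

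**Figure D1:**
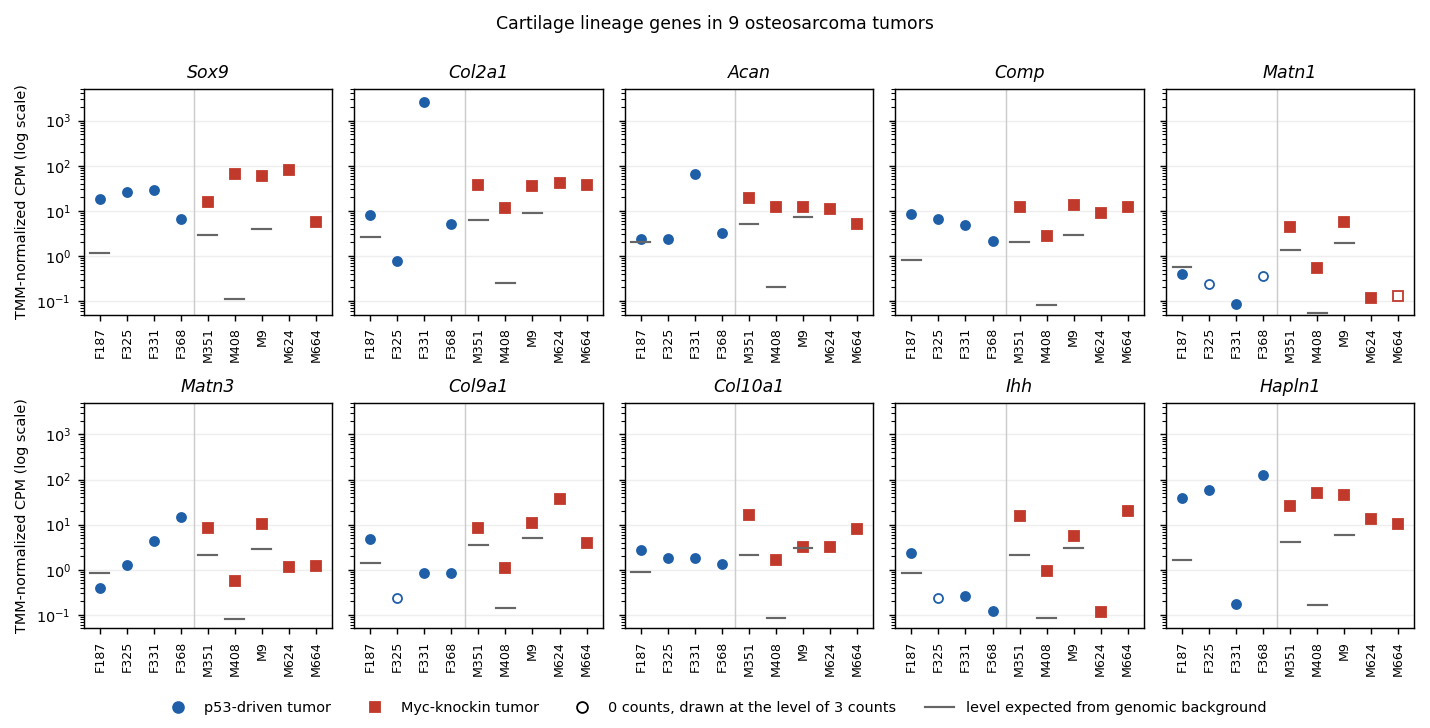
TMM-normalized CPM (log axis) of the 10 cartilage lineage genes in each of 9 tumors, with circles for p53-driven and squares for Myc-knockin tumors, open symbols for 0 counts drawn at the level of 3 counts, and gray bars for the level expected from genomic background where it is above 0.05 CPM. Col2a1 in F331, at 2566 CPM, stands above every other value, and Hapln1 in F331, at 0.173 CPM, lies below every other tumor's.

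Sox9, the master factor of the cartilage lineage, was detected in every tumor. The gene lies on chr11:112782224-112787760 of mm10. In the p53-driven tumors it had 18.6 CPM in F187, 26.7 in F325, 28.5 in F331 and 6.56 in F368. In the Myc-knockin tumors it had 15.4 CPM in M351, 67.2 in M408, 60.5 in M9, 79.6 in M624 and 5.70 in M664. M408, M9 and M624 thus lay above every p53-driven tumor, while M664 was the lowest of all 9 and M351 lay within the p53-driven range. The medians were 22.6 and 60.5 CPM, and the log2 fold change of Myc knockin over p53 driven was 1.18 (SE 0.70, edgeR adjusted p = 0.302). Because whole tumors were sequenced, fewer cells of a lineage and less RNA per cell cannot be told apart, here or for any gene that follows.

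The cartilage factors around Sox9 showed no called difference either. Of 14 listed chondrogenic factors, 8 were tested, and edgeR called 0 as higher and 0 as lower, with a median log2 fold change of 0.36 beside 0.14 over all genes tested. The 4 most abundant were Mef2c, a factor of chondrocyte hypertrophy, Prrx1, a factor of limb mesenchyme, Trps1, a repressor in the growth plate, and Wwp2, a ubiquitin ligase whose gene hosts a cartilage microRNA. Mef2c averaged 346 ± 71.9 CPM (SD, n = 4) among p53-driven and 217 ± 100.1 CPM (SD, n = 5) among Myc-knockin tumors, and its log2 fold change of -0.67 had an edgeR adjusted p of 0.398. The log2 fold changes were -0.66 for Prrx1, -0.94 for Trps1 and 0.69 for Wwp2, with edgeR adjusted p values of 0.514, 0.169 and 0.307. Of the SOX9 partners, named here after their values were seen, Sox5 had a log2 fold change of 1.61 and Sox6 of 0.54, with edgeR adjusted p values of 0.301 and 0.529. Background would give 14.1 of the 19.1 CPM of Sox5 in M9, 9.88 of 14.8 CPM in M351 and 4.01 of 8.69 CPM in F187. Nkx3-2, Barx1, Barx2, Foxa2, Foxa3 and Pax1 had too few counts to be tested.

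Col2a1, the gene of the type II collagen chain that defines cartilage fibrils, was abundant in 1 tumor, the p53-driven F331. It lies on the minus strand of chr15:97975602-98004695 and overlaps no other annotated gene. The other p53-driven tumors had 7.90 CPM (F187, 20 counts), 0.778 CPM (F325, 10 counts) and 5.23 CPM (F368, 43 counts), while F331 had 2566 CPM, from 29670 counts. The Myc-knockin tumors had 37.5 CPM in M351, 11.4 in M408, 35.9 in M9, 40.5 in M624 and 37.9 in M664. Each Myc-knockin tumor therefore exceeded 3 of the p53-driven tumors and fell far short of the fourth. Genomic background would account for about 6.53 of the 20 counts in F187, 10.3 of 61 in M351 and 11.4 of 45 in M9.

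F331 set the sign of the Col2a1 comparison. Over all 9 tumors the log2 fold change was -4.31 (SE 1.75, edgeR adjusted p = 0.146), DESeq2 gave no p because it marked an outlier, and limma-voom with quality weights gave 1.06. Without F331, which was left out after its value was seen, the p53-driven median was 5.23 CPM (n = 3, from 0.778 to 7.90 CPM) and the log2 fold change was 2.90 (SE 0.74, edgeR adjusted p = 0.113). In that set of 8 tumors edgeR called 0 of 9 members and 0.0375% of all genes, and DESeq2 called 2 of 9 members and 7.33% of all genes. Its calls were Col2a1, with a log2 fold change of 2.88 (DESeq2 adjusted p = 0.00182), and Acan, with 2.08 (DESeq2 adjusted p = 0.0112), while Col9a1 and Ihh were no longer called (DESeq2 adjusted p = 0.131 and 0.1203). The groups were free of overlap for those 2 members in these 8 tumors, and so were 15.3% of all genes tested.

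Among 12469 genes with at least 10 CPM in their highest tumor, Col2a1 had the highest ratio of the top tumor to the next, 63.4 for F331 over M624. Per kilobase of exon, a scale on which genes can be compared, Col2a1 reached 278 CPM in F331 and ranked 39 among 21792 protein-coding genes, whereas its best rank in another tumor was 5770, in M351. Within the p53-driven group the SD of its log2 CPM was 4.94, above that of 99.93% of the genes tested, whose median SD was 0.40. Within the Myc-knockin group the SD was 0.77, beside a median of 0.78 over all genes. The neighbors of Col2a1 did not share its level in F331. Of 32 genes tested within 1 Mb, the median log2 ratio of F331 to the median of the other tumors, after adding 1 CPM, was -0.22 and the highest was 2.29, for Rnd1, against 6.71 for Col2a1.

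**Figure D2:**
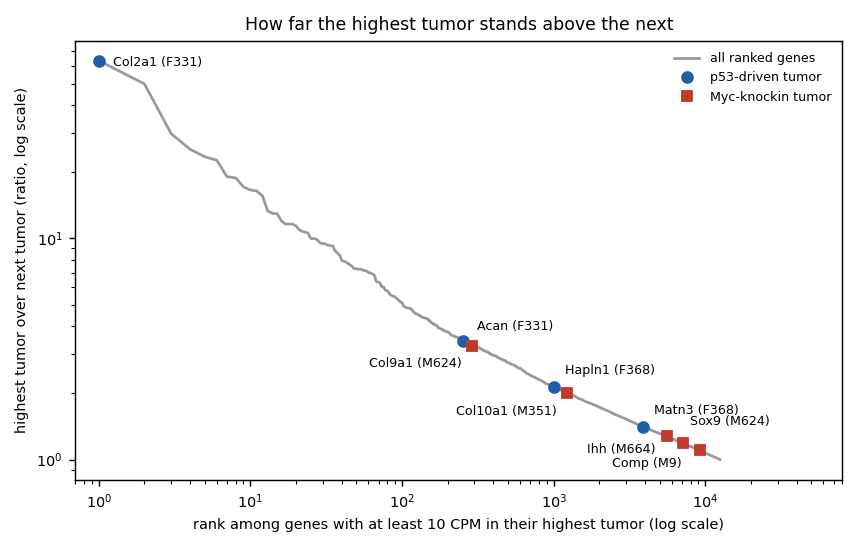
Ratio of the highest tumor to the next (log axis) against the rank of that ratio (log axis) for 12469 genes with at least 10 CPM in their highest tumor, with the 9 members that reach it marked and their highest tumor in brackets. Col2a1 ranks 1, Acan 251 and Col9a1 291, and the others lie further down the curve.

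Col9a1 encodes a chain of type IX collagen, which coats type II fibrils, and its highest level was in another tumor, the Myc-knockin M624. The gene lies on the plus strand of chr1:24177610-24252684. Its levels in the p53-driven tumors were 4.74 CPM in F187, 0 in F325, 0.865 in F331 and 0.851 in F368. In the Myc-knockin tumors they were 8.62 CPM in M351, 1.10 in M408, 11.2 in M9, 36.5 in M624 and 3.84 in M664. F331, with the most Col2a1, had 10 counts of Col9a1, and the groups overlapped because F187 exceeded M408 and M664. The log2 fold change was 3.19 (SE 1.24, edgeR adjusted p = 0.132) and DESeq2 gave 3.08 (adjusted p = 0.0454). Background would give about 3.58 of the 12 counts in F187, 5.66 of 14 in M351 and 6.23 of 14 in M9. A fit without these 3 tumors and M408 gave a log2 fold change of 5.17 (edgeR adjusted p = 0.0348). That fit called 4595 genes over the whole table, against 809 with all 9 tumors. Its Myc-knockin tumors were M624 and M664 alone, the libraries low in Rn7sk, so genotype and library cannot be told apart in it. The log2 fold change was 2.11 without M624 (edgeR adjusted p = 0.301), 2.25 without M624 and M664 (edgeR adjusted p = 0.309) and 4.44 without F187 (edgeR adjusted p = 0.0913).

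The promoter windows printed here, the 250 bases before the start of the RefSeq transcript in GRCm38.p6, belong to Col9a1, Acan, Ihh and Col10a1. No window was matched for Sox9, Col2a1 or Comp. The first pair is Col9a1 on chr1:24177360-24177609 (plus strand), highest in M624, and Acan on chr7:79052976-79053225 (plus strand), highest in F331.
Col9a1: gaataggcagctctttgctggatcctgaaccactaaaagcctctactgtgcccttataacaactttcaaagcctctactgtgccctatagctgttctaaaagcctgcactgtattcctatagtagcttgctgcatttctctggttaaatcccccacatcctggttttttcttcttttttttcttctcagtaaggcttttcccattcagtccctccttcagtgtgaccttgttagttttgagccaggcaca
Acan: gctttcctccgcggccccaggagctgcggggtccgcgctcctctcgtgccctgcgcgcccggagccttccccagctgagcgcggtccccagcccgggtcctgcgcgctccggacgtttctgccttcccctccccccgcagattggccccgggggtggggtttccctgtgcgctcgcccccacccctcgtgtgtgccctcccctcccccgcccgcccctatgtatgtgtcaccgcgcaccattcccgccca
The second pair is Ihh on chr1:74951673-74951922 (minus strand) and Col10a1 on chr10:34389731-34389980 (plus strand), whose 2 highest tumors were the same, M351 and M664. The capitals mark the letters ACAAAG, which SOX and TCF factors can bind.
Ihh: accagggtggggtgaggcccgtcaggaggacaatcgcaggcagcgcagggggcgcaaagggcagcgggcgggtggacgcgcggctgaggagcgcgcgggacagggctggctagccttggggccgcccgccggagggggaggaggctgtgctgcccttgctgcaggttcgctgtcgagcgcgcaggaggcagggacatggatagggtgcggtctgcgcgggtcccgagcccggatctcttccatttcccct
Col10a1: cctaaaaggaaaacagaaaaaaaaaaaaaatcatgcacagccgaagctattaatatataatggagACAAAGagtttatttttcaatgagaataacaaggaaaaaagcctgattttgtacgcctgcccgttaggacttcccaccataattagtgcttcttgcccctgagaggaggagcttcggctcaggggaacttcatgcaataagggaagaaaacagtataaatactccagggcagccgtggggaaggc
RefSeq windows were matched for 7 members, 8 windows in all, and searched on both strands for the SOX motif AACAAT, for ACAAAG and for the E-box CACGTG that MYC binds, motifs that cannot overlap each other. AACAAT was found in 0 of 8 windows, beside 9.42% of 32851 windows of the same length, and CACGTG in 0 of 8, beside 6.02%. ACAAAG was found in 1, that of Col10a1, with its match 185 bases before the start, beside 16.5% of all windows.

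Acan and Hapln1 encode partners in the same matrix complex, the proteoglycan aggrecan and the link protein that fastens it to hyaluronan, and in F331 they stood at opposite ends. Acan lies on chr7:79053483-79115099. Its levels in the p53-driven tumors were 2.37 CPM in F187, 2.33 in F325, 65.8 in F331 and 3.28 in F368. In the Myc-knockin tumors they were 19.1 CPM in M351, 11.9 in M408, 11.95 in M9, 11.1 in M624 and 5.05 in M664. As for Col2a1, every Myc-knockin tumor exceeded F187, F325 and F368 and none reached F331, which was 3.45 times M351, the next tumor. The log2 fold change was -0.69 (SE 0.94, edgeR adjusted p = 0.674) with all 9 tumors and 2.12 (SE 0.52, edgeR adjusted p = 0.106) without F331. Background would give about 5.28 of the 6 Acan counts in F187, 8.34 of 31 in M351 and 9.18 of 15 in M9.

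Hapln1, on chr13:89539796-89611652, was close to absent from F331. It had 39.9 CPM in F187, 59.7 in F325 and 127 in F368, and 0.173 CPM in F331, from 2 counts. The Myc-knockin tumors had 25.9 CPM in M351, 49.1 in M408, 46.2 in M9, 13.6 in M624 and 10.4 in M664. F368 exceeded F331 by 734 times (95% interval of the counts 203 to 6072), F325 by 345 times (95.3 to 2857) and F187 by 231 times (62.2 to 1930), intervals that cover counting error alone. The SD of log2 CPM among the p53-driven tumors was 3.82, above that of 99.88% of genes tested, and 1.00 among the Myc-knockin tumors. Between the genotypes the log2 fold change was -0.99 (SE 0.99, edgeR adjusted p = 0.553), and limma-voom gave 0.59. Without F368, the tumor with the most Hapln1, it was -0.25 (edgeR adjusted p = 0.923). Of the 6 genes tested within 1 Mb of Hapln1, the median log2 ratio of F331 to the other tumors was 0.23, the lowest -1.04, for Vcan, and the highest 3.35, for Edil3, while Hapln1 itself had -5.23. Vcan, which encodes the proteoglycan versican and lies 43660 bases from Hapln1, had 67.5 CPM in F331 and between 91.3 and 544 CPM in the other p53-driven tumors. Edil3, which encodes a secreted integrin-binding protein, had 189 CPM in F331 and 42.7 CPM in the next tumor, F187.

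Comp, Matn1 and Matn3, the bridging glycoproteins, were low in all tumors and marked none of them as Col2a1 did. Comp, on chr8:70373558-70382066, is also made in tendon. It had 8.29 CPM in F187, 6.53 in F325, 4.84 in F331 and 2.19 in F368, and 12.3 CPM in M351, 2.75 in M408, 13.5 in M9, 9.07 in M624 and 12.1 in M664. Of the 5 Myc-knockin tumors, 4 exceeded every p53-driven tumor and M408 did not, with a log2 fold change of 0.86 (SE 0.54, edgeR adjusted p = 0.325). Background would give about 3.65 of the 17 Comp counts in M9, 3.31 of 20 in M351 and 2.10 of 21 in F187. F331 had neither the highest nor the lowest Comp level.

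Matn3, on chr12:8947929-8972028, encodes a matrilin of growth cartilage and was highest in the p53-driven F368. The p53-driven tumors had 0.395 CPM in F187, 1.24 in F325, 4.24 in F331 and 14.6 in F368, and the Myc-knockin tumors 8.62 CPM in M351, 0.549 in M408, 10.4 in M9, 1.14 in M624 and 1.21 in M664. The ranges lay over each other, the log2 fold change was -0.40 (SE 1.08, edgeR adjusted p = 0.848), and it was 0.97 without F368 (edgeR adjusted p = 0.730). The single Matn3 count in F187 lay below the 2.13 expected from background, which would also give about 3.36 of the 14 counts in M351 and 3.70 of the 13 in M9. Matn1, on chr4:130944385-130955475, encodes cartilage matrix protein and was close to the detection limit everywhere. It had 1, 0, 1 and 0 counts in F187, F325, F331 and F368, and 7, 3, 7, 3 and 0 counts in M351, M408, M9, M624 and M664. The counts of 7 compare with about 2.23 expected from background in M351 and 2.46 in M9. An edgeR fit without the filter on low counts gave a log2 fold change of 4.00 for Matn1 (adjusted p = 0.474), a value that depends on how 0 counts are handled.

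Ihh and Col10a1, the signal and the collagen of cartilage on its way to bone, were highest in the Myc-knockin tumors M351 and M664. Ihh, on the minus strand of chr1:74945315-74951672, had 2.37 CPM in F187 (6 counts), 0 in F325, 0.259 in F331 (3 counts) and 0.122 in F368 (1 count). It had 15.4 CPM in M351 (25 counts), 0.916 in M408 (5 counts), 5.58 in M9 (7 counts), 0.114 in M624 (3 counts) and 19.6 in M664 (454 counts). M664 and M351 stood above the other 7 tumors, and M624 lay within the range of the p53-driven tumors. Background would give about 3.40 counts in M351, 3.75 in M9 and 2.15 in F187, so the level in M9 rests on few reads beyond it. The log2 fold change was 4.07 (SE 1.60, edgeR adjusted p = 0.134), and DESeq2 gave 3.84 (adjusted p = 0.0382). In the edgeR fits that left out 1 tumor and still tested Ihh, it ran from 3.44 without F325 to 5.90 without F187, and Ihh did not pass the filter on low counts without M351, M9 or M664. Of 38 genes tested within 1 Mb of Ihh, the median log2 ratio of M664 to the other tumors was 0.32, against 3.70 for Ihh.

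Col10a1, on the plus strand of chr10:34389981-34397085, encodes the collagen of hypertrophic chondrocytes. It had 2.76 CPM in F187, 1.79 in F325, 1.82 in F331 and 1.34 in F368, and 16.0 CPM in M351, 1.648 in M408, 3.19 in M9, 3.20 in M624 and 7.99 in M664. M9, M624, M664 and M351 exceeded every p53-driven tumor and M408 did not, although the 4 counts in M9 compare with 3.85 expected from background. The log2 fold change was 1.73 (SE 0.71, edgeR adjusted p = 0.147), and 1.11 without M351 (edgeR adjusted p = 0.300). Col10a1 shares 18 exon bases with Nt5dc1 on the other strand, and since the strand setting of the counting is not given, reads there cannot be assigned to either gene. F331, the tumor with the most Col2a1 and Acan, had 21 counts of Col10a1 and 3 of Ihh.

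**Figure D3:**
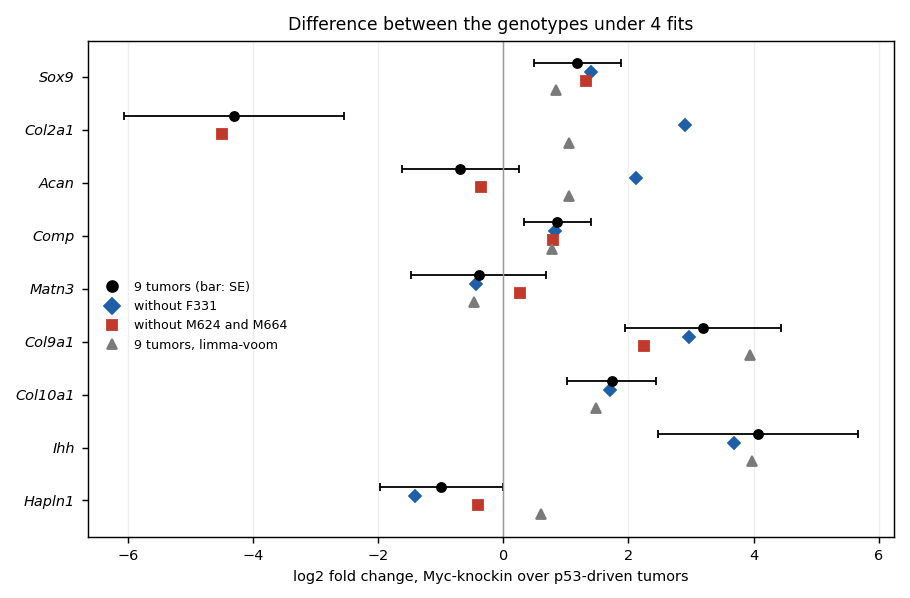
log2 fold change of Myc-knockin over p53-driven tumors for the 9 members tested, in edgeR fits of 9 tumors (black, bars of 1 SE), without F331 and without M624 and M664, and in limma-voom with 9 tumors. Col2a1 and Acan lie below 0 with F331 and above 0 without it, and Col10a1 and Ihh were not tested without M624 and M664.

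Per kilobase of exon, the leading member changed from tumor to tumor. Hapln1 led in F187 with 6.76 CPM per kilobase, in F325 with 10.1 and in F368 with 21.5. Col2a1 led in F331, with Acan next at 8.81 CPM per kilobase. Sox9 led in M408 with 16.3 CPM per kilobase, in M9 with 14.6 and in M624 with 19.2. No member led clearly in M351, where Col10a1 had 5.11, Ihh 5.05, Hapln1 4.38, Comp 4.15 and Col2a1 4.06 CPM per kilobase, from between 20 and 61 counts each. Ihh led in M664 with 6.43 CPM per kilobase.

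Beyond Ihh, the hedgehog loop held 2 called increases, in Gli1 and Hhip. Ihh acts through PTCH1 and SMO on the GLI factors, whose activity raises Gli1, Ptch1 and Hhip, and in the growth plate it raises Pthlh, whose product PTHrP holds back hypertrophy through the receptor PTH1R. Of 15 genes of this list tested, edgeR called 2 as higher and 1 as lower in the Myc-knockin tumors, with a median log2 fold change of 0.42, and of -0.28 without M624 and M664. Gli1 had 0.790 CPM in F187, 1.79 in F325, 1.38 in F331 and 1.22 in F368, and 11.7 CPM in M351, 20.1 in M408, 15.9 in M9, 204 in M624 and 57.4 in M664. Every Myc-knockin tumor exceeded every p53-driven tumor, and the log2 fold change was 5.51 (SE 0.96, edgeR adjusted p = 0.0217) with 9 tumors and 3.61 (edgeR adjusted p = 0.0241) without M624 and M664. Background would give 1.39 CPM of Gli1 in F187, 3.43 in M351 and 4.89 in M9. The Gli1 call was lost without F325, without F331 and without F368, with an edgeR adjusted p of up to 0.0909 and a log2 fold change of at least 4.36 over the 9 fits that each left out 1 tumor. Those 3 fits called only 8, 6 and 5 genes over the whole table, so a call lost there is not particular to Gli1.

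Hhip, a hedgehog-binding inhibitor, had 3.16 CPM in F187, 0.156 in F325, 0 in F331 and 0 in F368, and 17.2 CPM in M351, 9.71 in M408, 29.5 in M9, 51.6 in M624 and 3.58 in M664. Background would give 2.53 CPM of Hhip in F187, 6.24 in M351 and 8.89 in M9. Its log2 fold change was 5.58 (SE 1.38, edgeR adjusted p = 0.0441), and the call was lost in 5 of the 9 fits that left out 1 tumor, those without F325, F331, F368, M351 or M624, where the edgeR adjusted p reached 0.162. Disp1, which releases hedgehog from the cell, was lower in the Myc-knockin tumors, with a log2 fold change of -1.41 (edgeR adjusted p = 0.0371), a call kept in 1 of the 9 fits. Without M624 and M664, 1 gene of this list was called as higher, Gli1, and 1 as lower, Boc, a hedgehog co-receptor with a log2 fold change of -1.43 (edgeR adjusted p = 0.0451).

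The readouts and the ligand were not highest in the same tumor. The genes in this comparison beyond Ihh, Gli1 and Hhip were chosen after their values were seen. Ptch1 had between 37.5 and 60.0 CPM in the p53-driven tumors, between 64.6 and 120 CPM in M351, M408, M9 and M664, and 841 CPM in M624, where Ihh had 3 counts. Of these Ptch1 levels, background would give 9.75 CPM in M351, 13.9 in M9 and 3.96 in F187. The gap between M351, at 64.6 CPM, and F331, at 60.0 CPM, is smaller than the background in M351. Col9a3, another chain of type IX collagen, had 95.6 CPM in M624 and 15.1 CPM in the next tumor, M9, so that in M624 high Sox9, Col9a1 and Col9a3 stood beside high Gli1 and Ptch1. Pthlh, the PTHrP gene, lay between 0 and 1.97 CPM in the p53-driven tumors and had 4.31 CPM in M351, 6.04 in M408, 5.58 in M9, 0.114 in M624 and 1.04 in M664. From background would come 1.11 CPM of Pthlh in M351 and 1.585 in M9, and 3.77 CPM of Col9a3 in M9. Pth1r, the receptor, had 633 CPM in M664, the tumor with the most Ihh, and 154 CPM in the next tumor, F325. Between the genotypes Ptch1 had a log2 fold change of 2.26 (edgeR adjusted p = 0.0970), Pthlh of 2.81 (edgeR adjusted p = 0.219) and Pth1r of 0.80 (edgeR adjusted p = 0.506), and none was called.

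**Figure D4:**
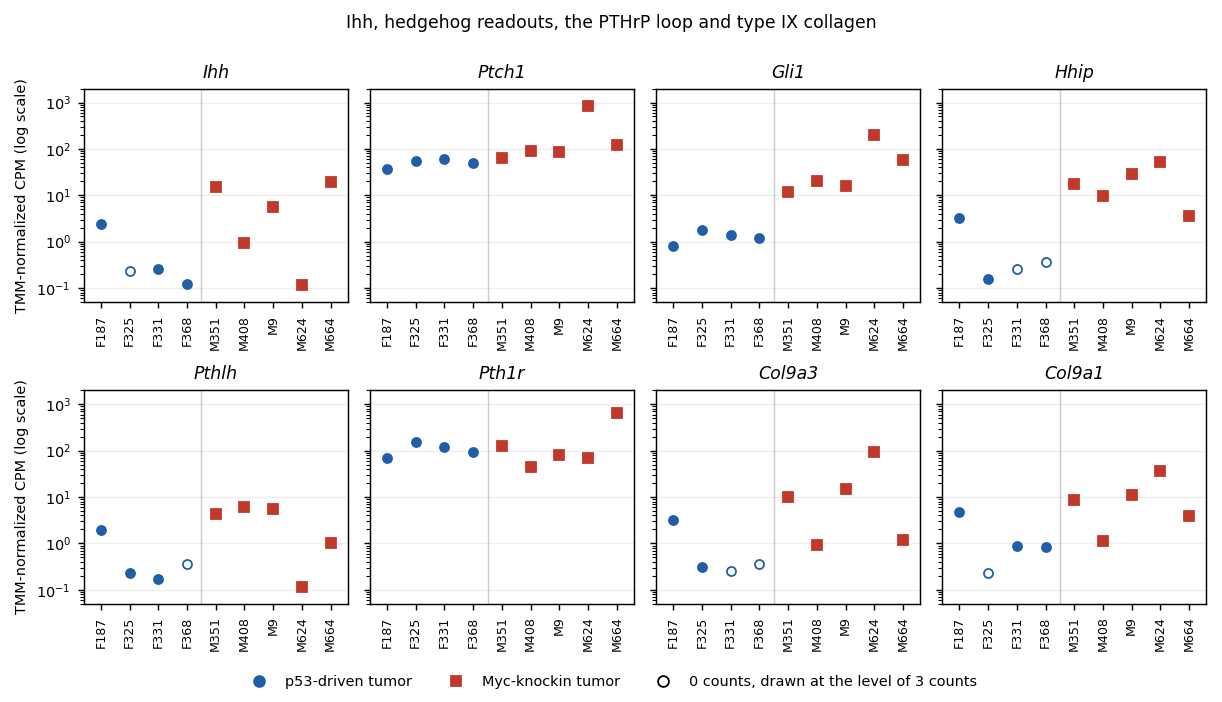
TMM-normalized CPM (log axis) of Ihh, 3 hedgehog readouts, Pthlh, Pth1r, Col9a3 and Col9a1 in each of 9 tumors, with circles for p53-driven and squares for Myc-knockin tumors and open symbols for 0 counts drawn at the level of 3 counts. Gli1 and, more narrowly, Ptch1 and Hhip do not overlap between the genotypes, like 13.0% of all genes tested. The highest Ptch1, Gli1, Hhip, Col9a3 and Col9a1 levels are in M624, where Ihh has 0.114 CPM.

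The rest of the cartilage matrix held called decreases and no called increase. Of 23 listed genes, 13 were tested, and edgeR called 0 as higher and 2 as lower in the Myc-knockin tumors, with a median log2 fold change of -0.34. The log2 fold change was positive for 5 and negative for 8. The largest in either direction was that of Col9a3, 5.59, which was not called (edgeR adjusted p = 0.0815). It was 3.71 without M624 and M664 (edgeR adjusted p = 0.191). Col11a1, which nucleates fibrils in cartilage and is made outside it too, had 1360 CPM in F187, 1740 in F325, 2039 in F331 and 1495 in F368, and 243 CPM in M351, 73.6 in M408, 236 in M9, 138 in M624 and 281 in M664. It fell without overlap, with a log2 fold change of -3.09 (SE 0.45, edgeR adjusted p = 0.0160). Matn2, a matrilin found in many tissues, fell with a log2 fold change of -1.83 (SE 0.40, edgeR adjusted p = 0.0317). Without M624 and M664 the call of Col11a1 was kept (edgeR adjusted p = 0.0297) and that of Matn2 lost (edgeR adjusted p = 0.0627), while Col11a2, a partner chain of Col11a1, was called as lower (log2 fold change -2.87, edgeR adjusted p = 0.0480). Both genes were lower in every Myc-knockin tumor than in any p53-driven tumor, unlike Col2a1. The other 10 genes, Col9a2, Cnmd, Snorc, Ucma, Cytl1, Epyc, Cilp2, Otor, Mia and Clec3a, had too few counts to be tested.

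The hypertrophic zone list gave no call, with 0 higher and 0 lower of 12 tested and a median log2 fold change of -0.84. Its 4 most abundant genes, Ibsp, Spp1, Mmp13 and Alpl, are shared with osteoblasts. Their log2 fold changes were -0.76, -0.90, -2.04 and -0.83, with edgeR adjusted p values of 0.635, 0.482, 0.0870 and 0.449. In the list of aggrecan and matrix turnover, 3 of 9 tested were called as lower and 0 as higher, with a median log2 fold change of -1.57. They were the aggrecanase Adamts4 (-1.57, edgeR adjusted p = 0.0217), the collagenase Mmp14 (-1.79, edgeR adjusted p = 0.0412) and Ctsk (-3.81, edgeR adjusted p = 0.0348), the cathepsin of osteoclasts.

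Some markers of other cell types moved with the genotype or with F331, and their part in the member results was not tested. The osteoblast list had 0 higher and 2 lower of 15 tested, Bglap and Bglap2, the osteocalcin genes, with log2 fold changes of -5.34 (edgeR adjusted p = 0.0260) and -5.42 (edgeR adjusted p = 0.0288). Its summed level ran from 66323 to 142180 CPM in the p53-driven and from 3633 to 42002 CPM in the Myc-knockin tumors. Most of that sum in every tumor was Col1a1 and Col1a2, the type I collagen genes, so it mainly gives their level. Neither was called (edgeR adjusted p = 0.0682 and 0.0817). The log2 fold change was negative for 14 of the 15 genes, but small for some, as for Ifitm5 (-0.05) and Phex (-0.37). It was positive for 1, Mepe (3.27, edgeR adjusted p = 0.171). The osteoblast sum was lowest in M624, where Runx2, the osteoblast master factor, had 9.18 CPM against at least 132 CPM elsewhere. The osteoclast list had 6 of 8 tested called as lower and 0 as higher, among them Dcstamp (-5.02), Oscar (-4.68), Calcr (-4.44) and Atp6v0d2 (-4.21), with edgeR adjusted p values of 0.0260, 0.0195, 0.0243 and 0.0116. Its sum was highest in F331, 14151 CPM, and ran from 2716 to 7242 CPM in the other p53-driven tumors and from 124 to 2570 CPM in the Myc-knockin tumors. The leukocyte list had 3 of 10 tested called as lower and 0 as higher, Csf1r (-2.47), Cd68 (-2.27) and Tyrobp (-2.13), with edgeR adjusted p values of 0.0243, 0.0229 and 0.0392. The log2 fold change was negative for 9 of the 10 genes, but small for Cd53 (-0.11) and Lyz2 (-0.39). It was positive for 1, Coro1a (1.29, edgeR adjusted p = 0.146). Ptprc, the pan-leukocyte gene, was not called (-1.37, edgeR adjusted p = 0.0922). The sum of the leukocyte list was also highest in F331, 1878 CPM, with 1043 to 1062 CPM for the remaining p53-driven tumors and 318 to 868 CPM in the Myc-knockin tumors. Of the 18 genes called across all the lists, Atp6v0d2 was called in each of the 9 fits that left out 1 tumor, and the other 17 lost the call without F325, without F331 and without F368. Over the whole table those fits called 8, 6 and 5 genes. Without M624 and M664 the calls of Matn2, Hhip, Disp1 and Dcstamp were lost (edgeR adjusted p of Dcstamp = 0.0534).

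The muscle and tendon lists gave no call. The skeletal muscle list, with 0 higher and 0 lower of 10 tested, summed to between 31.6 and 6237 CPM in the p53-driven tumors, 58.7 CPM of them in F331, and to between 7.05 and 2902 CPM in the Myc-knockin tumors. Its 4 most abundant genes were the muscle actin, myosin and calcium pump genes Acta1, Myh4, Myh1 and Atp2a1, with log2 fold changes of -0.69, -2.86, -1.32 and -0.78 and edgeR adjusted p values of 0.820, 0.329, 0.611 and 0.784. The tendon and ligament list, with 0 higher and 0 lower of 5 tested, summed to between 545 and 862 CPM in the p53-driven and between 102 and 345 CPM in the Myc-knockin tumors. Most of the sum in each p53-driven tumor was Fmod, which is also in the cartilage matrix list. Fmod had 469 to 739 CPM in the p53-driven and 15.8 to 254 CPM in the Myc-knockin tumors. Its log2 fold change was -2.52 (edgeR adjusted p = 0.0700). The tendon factor Scx had a log2 fold change of -1.25 (edgeR adjusted p = 0.130). Egr1 and Thbs4 had 0.42 and -0.16, with edgeR adjusted p values of 0.717 and 0.906.

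Ratios within a tumor, which do not depend on the scaling between libraries, compared cartilage with bone. The log2 ratio of Col2a1 to Col1a1 counts, the cartilage to the bone collagen, was -12.3 in F187, -16.5 in F325, -4.61 in F331 and -14.1 in F368. It was -7.50 in M351, -8.46 in M408, -7.97 in M9, -5.70 in M624 and -9.07 in M664. The Myc-knockin tumors lay between F331 and the other p53-driven tumors, with means of -11.9 ± 5.14 (SD, n = 4) and -7.74 ± 1.28 (SD, n = 5) and a difference of 4.13 (two-sided exact permutation test, p = 0.127, 0.190 adjusted over 3 ratios by the Benjamini-Hochberg method). Col1a1 itself was lower in every Myc-knockin tumor, with 2098 to 20368 CPM against 40517 to 89709 CPM, so the ratio rests on both collagens.

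The log2 ratio of Col10a1 to Col2a1, the hypertrophic to the general cartilage collagen, did not separate the genotypes. It was -10.4 in F331 and between -1.92 and 1.16 in the other p53-driven tumors, and between -3.65 and -1.21 in the Myc-knockin tumors. The difference was 0.53 (two-sided exact permutation test, p = 0.857, 0.857 adjusted), and without F331 it was -1.90. The log2 ratio of Sox9 to Runx2, the cartilage to the osteoblast factor, was 3.11 in M624, where Sox9 counts exceeded those of Runx2. It lay between -4.55 and -0.98 in the other Myc-knockin tumors and between -5.81 and -3.38 in the p53-driven tumors. The difference was 2.60 (two-sided exact permutation test, p = 0.127, 0.190 adjusted). With 126 arrangements of 9 tumors, the smallest p this test can give is 0.0159.

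**Figure D5:**
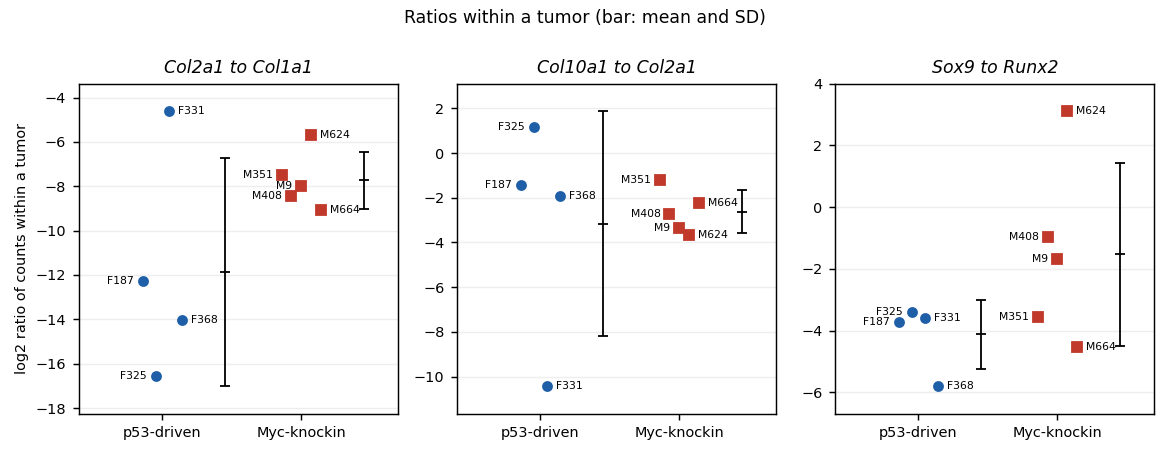
log2 ratio of counts within each tumor for Col2a1 to Col1a1, Col10a1 to Col2a1 and Sox9 to Runx2, with a point for each tumor and bars for the mean and SD of 4 p53-driven and 5 Myc-knockin tumors. F331 stands apart from the other p53-driven tumors in the first and second panels, and M624 is highest in the third, at 3.11.

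Likeness to Col2a1 across the 9 tumors was measured as Pearson's r of log2 CPM, a description in which F331 weighs heavily. Among genes with a mean of at least 5 CPM, the 8 most alike outside the members were Zdhhc14 (r = 0.92), Ncbp3 (0.91), Tom1l1 (0.84), Mgat2 (0.83), Amacr (0.82), Ttc33 (0.80), Rmnd1 (0.79) and Abhd13 (0.79). Their levels moved over a narrow range, as for Zdhhc14, the highest of them in likeness, with 33.9 CPM in F331 and between 8.27 and 14.1 CPM elsewhere. Without F331 the r of the 8 genes ran from 0.20 for Abhd13 to 0.83 for Tom1l1. Among the members, Acan was the most alike with all 9 tumors (r = 0.89, and 0.75 without F331) and Col9a1 without F331 (r = 0.89, and 0.30 with it). Hapln1 was the least alike in both sets, with -0.90 and -0.67. Sox9 had r = 0.13 with Col2a1, and 0.12 without F331.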

How the data were processed

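RNA-Seq of 9 whole tumors was used, 4 p53 driven and 5 Myc knockin. The paper describes enrichment for mRNA on oligo-dT beads. Satellite and Rn7sk levels differed between the libraries, and whether all were prepared alike was not tested. Per the labels the authors processed the reads with Trim Galore, STAR (mm10) and featureCounts. The deposited values are raw counts per gene. The strand setting and the treatment of multi-mapping reads are not given in the sources used here. The columns of F187, F325, F331, F368 as well as M408 and M624 were assigned to a genotype from the names listed under it in the study's supporting cell line data, and M351, M9 and M664 from the letter M. The sources pair no column with a numbered sample, so a tumor was used as a member of its group.

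The genotypes were compared with edgeR 4.0.16 in R 4.3.3 (TMM, filterByExpr with a minimum count of 10, glmQLFit and glmQLFTest without covariates), with Benjamini-Hochberg adjustment over 15365 genes. Calls required an adjusted p below 0.05 and more than a 1.5-fold change. DESeq2 1.42.0 and limma 3.58.1 (voom with quality weights) were alternatives. The script was tested on simulated data. The log2 CPM used a prior count of 2. Ratios within a tumor are log2 of counts plus 0.5, compared by two-sided exact permutation tests in scipy 1.17.1. Genomic background was estimated per kilobase of exon from 1535 chemosensory receptor genes, and came to 23.9% of the counts outside the satellite genes in M9, 16.7% in M351, 5.47% in F187 and at most 0.592% elsewhere. Exons and positions came from GENCODE M21, which holds 55034 of the 55367 gene identifiers. Depth limits the low genes, and intervals and floors cover counting error alone.

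The members and gene lists were chosen with earlier results of these data known. Named are the 10 members with every tumor's value, up to 4 genes per list (the called genes with the largest log2 fold change in either direction or, with none called, those of highest mean CPM), and the 8 genes most like Col2a1. The other alternatives were upper-quartile and library-size scaling, no filter, removal of the satellite genes, subtraction of the background, removal of libraries that stand apart, another pseudocount of 2, and each tumor left out in turn.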

Additional observations from a re-analysis of the deposited data

Results flagged for a closer look

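In each group the highest and the lowest tumor's log2 CPM were set against the group's range, for 10 genes in 2 genotypes. Of 20 groups, 3 held a tumor whose gap to the nearest other tumor passed Dixon's 95% limit, and chance alone would flag about 1 in 20. Acan in F331 was 6.04 on the log2 scale against 1.80 in the next p53-driven tumor, a gap of 0.902 of the group's range. Col2a1 in M408 was 3.53 against 5.17 in the next lowest Myc-knockin tumor, a gap of 0.904 of the range. Comp in M408 was 1.56 against 3.21, a gap of 0.744 of the range. The p53-driven groups of Col2a1 and Hapln1, where F331 was the highest and the lowest tumor, did not pass this limit.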

How the results depend on the processing

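Across the alternatives, 173 of 190 log2 fold changes of single members kept their direction and their side of the threshold, and 33 of 36 differences of the ratios did. The number of members called was 0 under 20 of 23 alternatives, 2 with DESeq2, 1 without F187, M351, M408 and M9 (Col9a1), and 2 with DESeq2 without F331. It was 0 in each of the 9 fits without 1 tumor. In the 20 alternatives with 0 members called, the genes called over the whole table ran from 0 to 1926. They numbered 0 without F331, M624 and M664, 50 without F331 and background, and 136 with library size alone. A 0 for the members says little in such fits. Over the whole table, DESeq2 called 2258 genes and gave 8 members an adjusted p. The fit without F187, M351, M408 and M9 called 4595 genes and tested 8 members. DESeq2 without F331 called 1111 genes and gave 9 members an adjusted p. The Col2a1 log2 fold change reversed to 1.06 with limma-voom, 2.90 without F331, 3.18 without F331 and background, 2.76 without F331, M624 and M664, and 2.88 with DESeq2 without F331. The Acan log2 fold change reversed to 1.06, 2.12, 2.32, 2.48 and 2.08 under the same alternatives. That of Matn3 reversed to 0.27 without M624 and M664, 0.97 without F368 and 0.22 without F331, M624 and M664, and that of Hapln1 to 0.59 with limma-voom. Over the fits without 1 tumor, the lowest log2 fold changes were -4.76 for Col2a1, -1.08 for Acan and -1.06 for Matn3. The difference of the log2 ratio of Col2a1 to Col1a1 ran from 2.58 to 6.56 with each tumor left out, and at its highest, without F331, the two-sided exact permutation p was 0.0357. That of Col10a1 to Col2a1 ran from -1.90 to 1.97, was negative without F331, and was -0.045 with the background subtracted. That of Sox9 to Runx2 ran from 1.44 to 3.35. Where 1 tumor was left out, the change depended on which tumor it was. The Col2a1 log2 fold change was -4.74, -4.71 and -4.76 without F187, F325 and F368, and 2.90 without F331. For limma-voom, DESeq2 and the background the cause of the change was not tested. The alternatives that combine F331 with another choice, and the one without M351 and M9, were chosen after seeing the data. Leaving out F325, F331 or F368 lowered the genes called over the whole table from 809 to 8, 6 and 5. Without F187, M351, M408, M9, M624 or M664 the genes called numbered 335, 371, 847, 1588, 375 and 698. No paired analysis was possible because the columns carry no replicate numbers and the labels name no pairs of tumors across the genotypes. The replicate numbers in the labels only count the tumors within each genotype, so they would not by themselves define pairs. Without M624 and M664 the smallest permutation p is 0.0571.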
